A study of Mus musculus with 18 samples.

Results

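The integrated stress response is the programme by which cells slow protein synthesis and switch on amino acid supply under stress, and 35 of its genes are described here among the 18397 genes of the series' gene table. They were chosen by symbol, from a list of genes known for this pathway, and all 35 were found. The choice was made with earlier results of these data known. By role they are the kinases, initiation factor subunit and phosphatase arm of the pathway (5 genes), its transcription factors and feedback regulators (7), enzymes of amino acid synthesis (7), amino acid transporters (9), brakes on growth, translation and glutathione, set together with the lipoprotein receptor Vldlr (4), and secreted factors (3). RNA came from cells labelled RAW264.7, a macrophage-like line from mouse, in 18 libraries that form 6 groups of 3. Cells were grown on a matrix that was soft (group Soft) or stiff (group Stiff), and either matrix was also combined with mito (Soft+mito, Stiff+mito) or TW (Soft-TW, Stiff-TW), terms left unexplained in the labels. No stiffness values, passage or culture times are in the labels, and all groups carry the same cell line label. The series is about stiffness and the transfer of mitochondria, so the comparisons below ask how these genes differ between the matrices and with mito and TW on each.

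Library totals ran from 16054637 to 16887244 estimated counts, with 11785 to 11909 genes at 10 counts or more. The labelled cell type was checked against 19 macrophage markers, of which 18 were in the table. Averaged over the 18 libraries, only Lyz2 and Cd14 reached 10 TPM (transcript abundance scaled for length and library size). By group, Csf1r, Adgre1 and Ptprc, which define macrophages and leukocytes, had means under 1 TPM. Adgre1, Fcer1g and Cd86 were at 0 TPM in at least 9 of the 18 libraries. The list's sum was lowest in Stiff, at 35.6 ± 2.68 TPM, and highest in Soft-TW, at 87.1 ± 1.36, with Soft at 42.7 ± 0.357, Stiff+mito at 44.4 ± 1.5, Soft+mito at 54.1 ± 2.06 and Stiff-TW at 58.2 ± 1.45. From Soft to Soft-TW, Cd14 went from 27.6 to 30.2 TPM and Lyz2 from 5.59 to 30.2. Of the list's 9 genes tested in the edgeR fit below, 7 rose with TW on each matrix and 0 fell. Of all genes, 28.9% rose with TW on the soft matrix and 35.5% on the stiff one. With mito 5 of the 9 rose on the soft matrix (14.8%) and 4 on the stiff one (15.6%), and 0 fell. Of 7 epithelial markers in the table, Krt8 and Krt18 reached 10 TPM on the same average, and the sum of the list ran from 674.9 ± 6.44 TPM in Stiff-TW to 1036 ± 6.58 in Soft+mito. The sum of 9 mesenchymal markers, led by Vim, ran from 1811 ± 19.7 TPM in Stiff to 4736 ± 17.7 in Stiff-TW. Vim alone was at 1426 and 4217 TPM there, so this sum mostly follows Vim. Of the 7 mesenchymal markers tested in Stiff against Soft, 5 rose, and Vim and Pdgfra fell (29.1% and 24.7% of all genes). The sums of these lists moved with the groups, and their part in the results below was not tested. With most macrophage markers this low, the labelled cell type is not borne out by these values, and no other is assigned. The cells are therefore called by their group names, and in RNA from whole cultures a change in the mix of cells and a change per cell cannot be told apart.

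In the integrated stress response, kinases that sense misfolded protein, amino acid shortage, heme shortage or mitochondrial trouble phosphorylate the alpha subunit of the initiation factor eIF2. General translation then slows, while the mRNA of the transcription factor Atf4 is translated more. Atf4 pairs with C/EBP proteins on composite C/EBP-ATF elements (CARE) and induces genes for amino acid synthesis, uptake and tRNA charging. The Atf4 target and phosphatase subunit encoded by Ppp1r15a closes the loop by removing the phosphate, and Trib3 restrains Atf4 itself. Phosphorylation and translation were not measured here, only mRNA.

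The core of the CARE, TGATGNAA on one strand and TTNCATCA on the other, was searched on both strands of RefSeq promoter windows of 300 bases (250 before the start site and 50 after it, build GRCm38.p6). It was found in 10 of the 30 members with a window (33.3%) and in 1219 of all 27025 genes with one (4.51%). No entry was found for Slc7a3, Slc7a5, Eif4ebp1, Slc1a5 and Cth. The 8 windows of 30 bases below, each 5′ to 3′ on the gene's own strand with the match in capitals, are shown because these members are the ones with a match besides Asns and Slc7a11. They lie at chr2:152344028-152344057 (Trib3, minus strand), chr7:126625562-126625591 (Nupr1, minus), chr11:120643833-120643862 (Pycr1, minus), chr19:43524689-43524718 (Got1, minus), chr11:20332699-20332728 (Slc1a4, minus), chr2:119351038-119351067 (Chac1, plus), chr19:27216809-27216838 (Vldlr, plus) and chr7:45615611-45615640 (Fgf21, minus).
Trib3: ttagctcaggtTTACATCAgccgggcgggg
Nupr1: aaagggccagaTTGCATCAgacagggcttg
Pycr1: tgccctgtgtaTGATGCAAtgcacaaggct
Got1: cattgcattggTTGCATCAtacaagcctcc
Slc1a4: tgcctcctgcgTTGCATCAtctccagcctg
Chac1: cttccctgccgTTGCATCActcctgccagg
Vldlr: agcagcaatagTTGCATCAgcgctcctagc
Fgf21: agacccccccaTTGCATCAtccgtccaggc

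For Asns, a classical Atf4 target, and Slc7a11, the member with a match on each strand, the 250 bases before the start site are shown whole, at chr6:7693210-7693459 (minus strand) and chr3:50443614-50443863 (minus strand), with matches in capitals. The start site that RefSeq's window uses for Slc7a11 lies inside the gene's annotated span, which reaches to position 50499087. The same holds for Vldlr, whose span starts at position 27216480, so its match above lies within the annotated gene.
Asns: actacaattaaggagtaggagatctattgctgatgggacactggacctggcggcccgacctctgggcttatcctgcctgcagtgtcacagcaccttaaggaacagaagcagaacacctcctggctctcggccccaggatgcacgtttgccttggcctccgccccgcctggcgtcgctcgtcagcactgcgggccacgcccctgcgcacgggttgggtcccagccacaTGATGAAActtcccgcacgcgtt
Slc7a11: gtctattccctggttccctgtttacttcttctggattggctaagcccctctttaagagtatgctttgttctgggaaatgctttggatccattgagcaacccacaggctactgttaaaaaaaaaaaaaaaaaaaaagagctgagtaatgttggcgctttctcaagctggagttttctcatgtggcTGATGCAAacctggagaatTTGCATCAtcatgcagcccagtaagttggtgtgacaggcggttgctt

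The 9 tested members with a match had a median log2 fold change of 0.60 in Stiff against Soft, and the 18 tested members with a window and no match 0.42. A match is a run of letters and not a measured site, and these medians are a description only.

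On the stiff matrix most of these genes stood higher than on the soft one. Of the 32 members with enough counts to test, 27 rose in Stiff against Soft, 3 fell and 2 did not pass the test, an adjusted p under 0.05 in edgeR. Among all 12245 genes tested, 29.1% rose and 24.7% fell in this comparison (with the library total as the scale, 2945 genes rose and 3740 fell, in place of 3564 and 3024). Replicate libraries lay close together, with a common biological coefficient of variation of 0.0175, so that small changes pass and those of at least 1.5-fold are given beside them. By at least 1.5-fold, 14 members rose and 0 fell, where 4.03% of all genes rose and 2.90% fell. All sizes of rises and falls are on the log2 scale unless called a fold. Orders and overlaps of groups are read from TPM. Its median log2 ratio over all genes ran from -0.113 in Soft-TW against Soft to 0.012 in Stiff+mito against Soft+mito. Groups that lie close in TPM can therefore be ordered otherwise by the fitted values. The median log2 fold change was 0.55 over the members and 0.02 over all genes tested. All 3 libraries of a group enter each value, the value after ± is the standard deviation for TPM and an approximate standard error for a log2 fold change, and the p-values reflect the spread among libraries of a group alone, which may be technical.

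**Figure D1:**
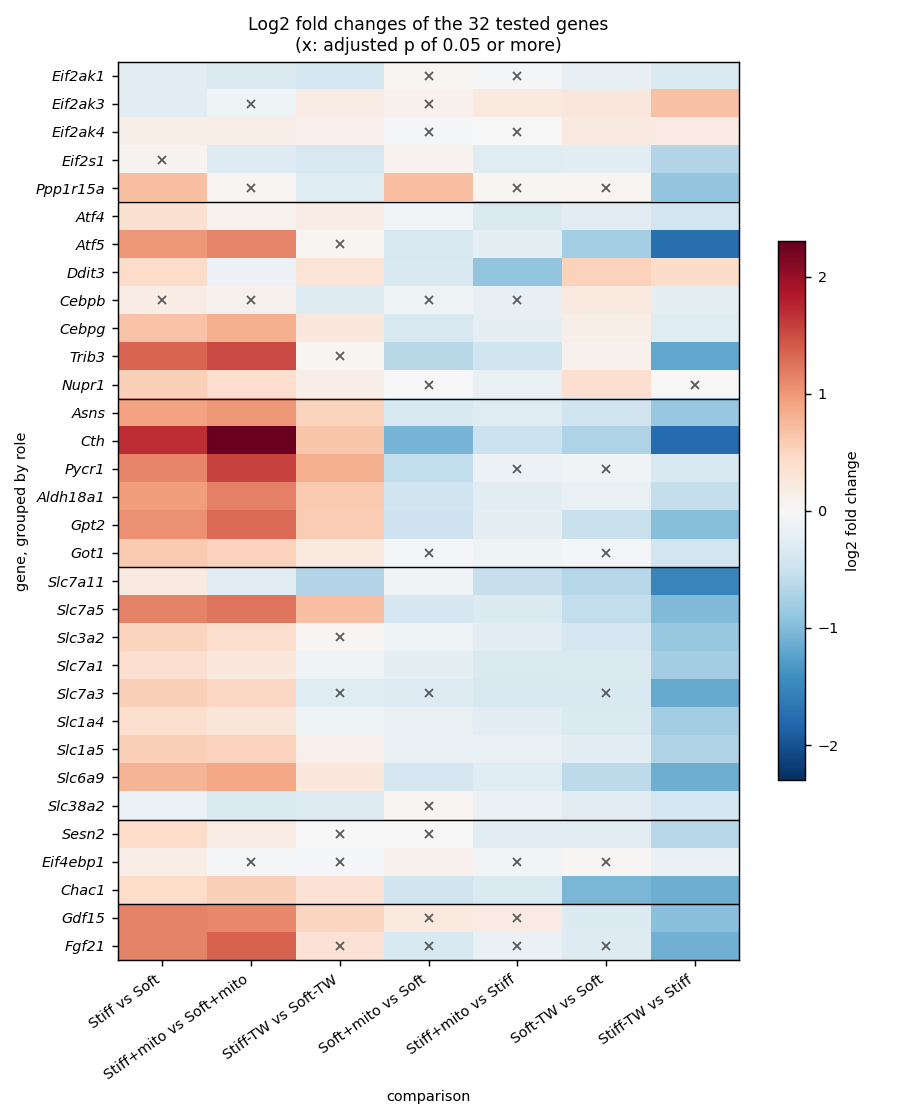
Log2 fold change of each of the 32 tested members (rows, grouped by role) in 7 comparisons (columns), from the fit over 18 libraries, with red for higher and blue for lower in the group named first and a cross where the adjusted p was 0.05 or more. The matrix columns are mostly red at the left, and the column of Stiff-TW against Stiff is blue for the 28 members that fell.

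In Stiff against Soft the 3 kinases among the members changed by under 1.5-fold, 2 of them lower and 1 higher (24.7% and 29.1% of all genes). Eif2ak1, the heme-regulated kinase HRI, which also relays mitochondrial stress, was at 60.2, 53.9 and 54.8 TPM in Soft and 43.5, 44.6 and 44.6 in Stiff. In Soft+mito and Stiff+mito it was at 56.4, 56 and 51.8 and at 42.7, 45.1 and 42.3 TPM. With TW it was at 45.2, 44.9 and 47.8 TPM in Soft-TW and 35.8, 33.7 and 33 in Stiff-TW. On each of the 3 backgrounds the stiff libraries lay below the soft ones without overlap, and Eif2ak1 fell by 0.26 ± 0.038, 0.34 and 0.41 on the log2 scale (adjusted p = 3.20e-09 in Stiff against Soft). Eif2ak3 encodes PERK, the kinase of the endoplasmic reticulum. It was at 13.4, 13.4 and 14.3 TPM in Soft and 11.9, 10.6 and 10.9 in Stiff, where it fell by 0.24 ± 0.054. In Soft+mito it was at 14.1, 13.6 and 13.7 TPM and in Stiff+mito at 12.4, 13.2 and 13.8. Soft-TW had 15.5, 15.6 and 15.2 TPM and Stiff-TW 17.4, 17.4 and 16.6, the highest group. The TW libraries lay above all others, and PERK mRNA was one of 3 members that rose in Stiff-TW against Stiff (0.68 ± 0.051), where 35.5% of all genes rose. Eif2ak4, which encodes GCN2, the kinase that senses uncharged tRNA, was at 15.5, 14.9 and 14.5 TPM in Soft and 14.9, 15.2 and 16 in Stiff. With mito it read 14.6, 13.4 and 13 TPM on the soft matrix and 15.2, 15.5 and 15.4 on the stiff one. Soft-TW had 16.5, 15.3 and 15.9 TPM and Stiff-TW 16.8, 16.7 and 17.2. Most groups overlapped in Eif2ak4, and its small rise in Stiff against Soft (0.13 ± 0.045) did not pass in DESeq2 (adjusted p = 0.0642), with the library total as the scale (0.0776), or without Soft replicate 3 (0.0545) or Stiff replicate 3 (0.0634).

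Eif2s1, the eIF2 alpha subunit that these kinases phosphorylate, ranged from 64.9 ± 2.13 TPM in Stiff-TW to 109 ± 0.497 in Soft. It did not pass in Stiff against Soft (0.06 ± 0.027, adjusted p = 0.0543) and fell by 0.30 in Stiff+mito against Soft+mito and by 0.37 in Stiff-TW against Soft-TW. Ppp1r15a encodes GADD34, the inducible subunit that directs a phosphatase to eIF2 alpha (gene 17872, chr7:45522917-45526268). It was at 78.7, 78.4 and 75 TPM in Soft and at 115, 118 and 119.8 in Stiff. Its Soft+mito libraries had 117, 115 and 118 TPM and its Stiff+mito libraries 123, 118 and 121. Ppp1r15a in Soft-TW was at 76, 72.5 and 74.4 TPM and in Stiff-TW at 62.1, 61.3 and 58. Stiff, Soft+mito and Stiff+mito thus overlapped at one high level, Soft and Soft-TW overlapped at a lower one, and Stiff-TW lay below all. Ppp1r15a rose in Stiff against Soft (0.68 ± 0.031, adjusted p = 6.97e-39) and in Soft+mito against Soft (0.69 ± 0.031), and the difference in Stiff+mito against Stiff was 0.04 ± 0.029, which did not pass.

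The transcription factors and feedback genes rose in Stiff against Soft in 6 of 7 cases and fell in 0 (29.1% and 24.7% of all genes). Atf4, the factor at the centre of the pathway (gene 11911, chr15:80255184-80257545), was one of the most abundant members. It was at 686, 673 and 692 TPM in Soft and 826, 821 and 849 in Stiff. Atf4 in Soft+mito was at 614, 615 and 616 TPM and in Stiff+mito at 651, 654 and 657. With TW it read 538, 527 and 543 TPM on the soft matrix and 585, 591 and 595 on the stiff one. In TPM the 6 groups did not overlap, and their order from high to low was Stiff, Soft, Stiff+mito, Soft+mito, Stiff-TW, Soft-TW. The order of Soft and Stiff+mito holds in TPM alone. In the fit the rise from Soft+mito to Stiff+mito was larger than the fall from Soft to Soft+mito. The fitted values thus put Stiff+mito slightly above Soft, a difference that was not tested. Atf4 mRNA rose on the stiff matrix by 0.36 ± 0.020 without addition (adjusted p = 1.15e-31), by 0.09 ± 0.020 with mito and by 0.16 ± 0.021 with TW. Its fall in Soft+mito against Soft was small (0.06 on the log2 scale) and was lost without Soft replicate 3, Soft+mito replicate 1 or Soft+mito replicate 2 (adjusted p from 0.0653 to 0.124).

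Atf5, a related factor linked to mitochondrial and amino acid stress (gene 107503, chr7:44812256-44816658), was at 148, 152 and 151 TPM in Soft and 299, 283 and 279 in Stiff. Under mito, values were 117, 104 and 109 TPM on the soft matrix and 249.6, 242 and 236 on the stiff one. Its Soft-TW libraries had 77.1, 84 and 84.2 TPM and its Stiff-TW libraries 82.6, 84.8 and 82.8. Stiff lay above every other group, and the TW groups lay lowest and overlapped. Atf5 rose by 1.00 ± 0.029 in Stiff against Soft and by 1.13 ± 0.031 with mito, and with TW the difference was 0.05 ± 0.039, which did not pass (adjusted p = 0.269). Trib3, the pseudokinase that feeds back on Atf4 (gene 228775, chr2:152337425-152344060), had the same order of groups at the top. It was at 96.3, 98.2 and 91.6 TPM in Soft and 229, 228 and 231 in Stiff. In Soft+mito it was at 58.4, 57.6 and 56.4 TPM and in Stiff+mito at 168, 167 and 163. In Soft-TW it was at 96, 91.3 and 95.4 TPM and in Stiff-TW at 96.1, 97.9 and 94.3. Soft, Soft-TW and Stiff-TW overlapped, Stiff and Stiff+mito stood above them and Soft+mito below. Trib3 rose by 1.34 ± 0.028 (adjusted p = 9.84e-70), by 1.52 ± 0.031 with mito, and differed by 0.05 ± 0.031 with TW (adjusted p = 0.181).

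Ddit3 encodes CHOP, the factor that couples the response to cell death (gene 13198, chr10:127290793-127296291), and its highest group was Stiff-TW. It was at 146, 164 and 158 TPM in Soft and 217, 212 and 210.2 in Stiff. With mito it read 127, 123 and 120.4 TPM on the soft matrix and 103, 115 and 120.2 on the stiff one. Soft-TW had 218, 214 and 222 TPM and Stiff-TW 264, 268 and 268. Soft-TW and Stiff overlapped below Stiff-TW, and Stiff+mito lay lowest. Ddit3 rose by 0.42 ± 0.040 in Stiff against Soft (adjusted p = 7.28e-17), and by 0.31 ± 0.036 with TW. With mito it fell by 0.13 on the log2 scale, a call that was lost without Stiff+mito replicate 1 (adjusted p = 0.189). Cebpg, a C/EBP protein that pairs with Atf4, was at 25.8, 24.7 and 26.8 TPM in Soft and 38.6, 38 and 37.9 in Stiff. Its Soft+mito libraries had 17.8, 19.9 and 18.4 TPM and its Stiff+mito libraries 34.1, 31.6 and 33.4. Cebpg in Soft-TW was at 26, 25.9 and 27.2 TPM and in Stiff-TW at 30.1, 31.3 and 31.1. The stiff libraries lay above the soft ones on all 3 backgrounds, and Cebpg rose by 0.66 ± 0.036, 0.81 ± 0.039 and 0.24 ± 0.037. The remaining members with this role were Nupr1, a small stress-induced chromatin protein, at group means from 135 to 214 TPM, and Cebpb, another C/EBP partner, at 81.9 to 103 TPM. Nupr1 rose by 0.55 ± 0.053 in Stiff against Soft, and Cebpb did not pass (0.16 ± 0.076, adjusted p = 0.0861).

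**Figure D2:**
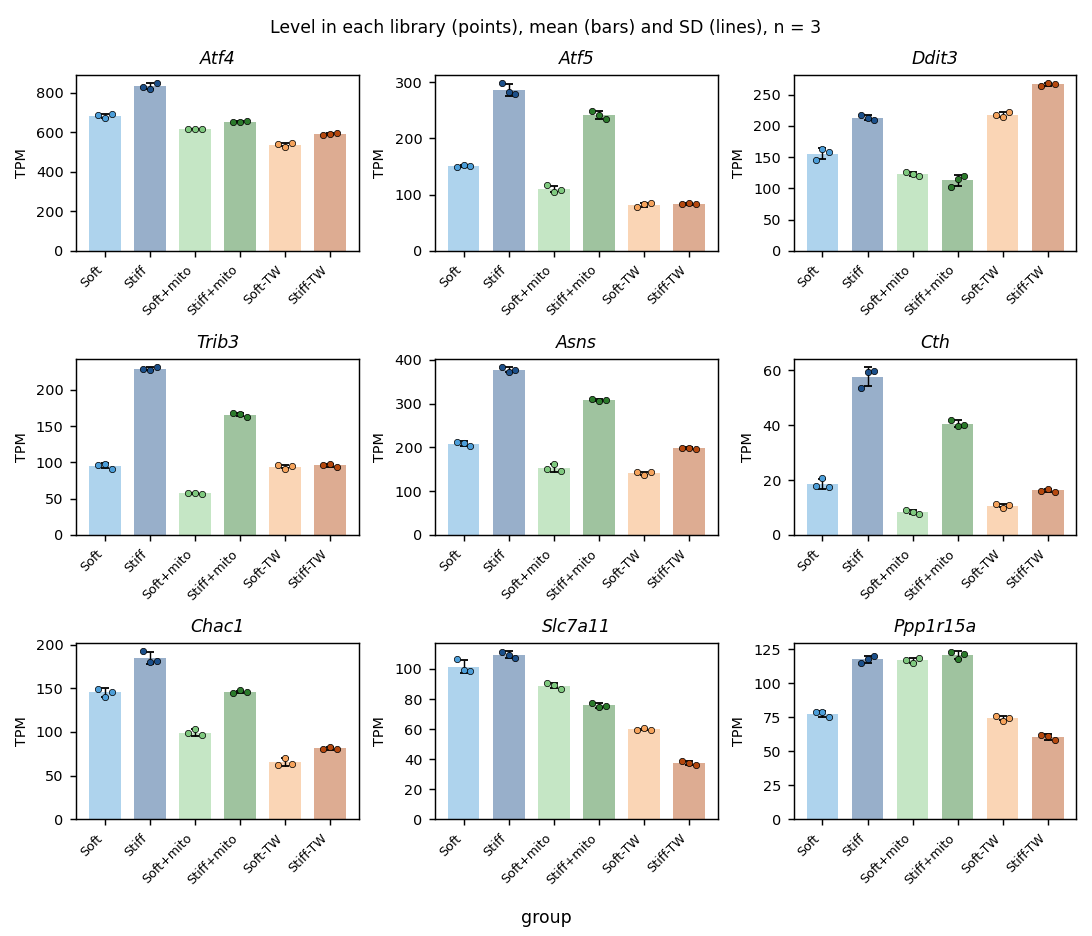
TPM of 9 members in each library (points), with the group mean as a bar from 0 and the standard deviation as a line (n = 3), for Soft, Stiff, Soft+mito, Stiff+mito, Soft-TW and Stiff-TW from left to right. Stiff is the highest group for Atf4, Atf5, Trib3, Asns, Cth, Chac1 and Slc7a11, whereas Ddit3 peaks in Stiff-TW at 266.6 TPM and Ppp1r15a is level across Stiff, Soft+mito and Stiff+mito.

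Enzymes of amino acid synthesis rose together on the stiff matrix. All 6 that were tested rose by at least 1.5-fold in Stiff against Soft (4.03% of all genes), with a median log2 fold change of 1.01. All 6 also rose in Stiff+mito against Soft+mito (32.7% of all genes rose there) and in Stiff-TW against Soft-TW (27.6%). Cth, which cleaves cystathionine to cysteine in transsulfuration (gene 107869, chr3:157894248-157925081), was at 17.7, 20.8 and 17.4 TPM in Soft and 53.6, 59.4 and 59.9 in Stiff. Cth in Soft+mito was at 9.1, 8.42 and 7.53 TPM and in Stiff+mito at 42, 39.6 and 40.0. With TW it read 11.1, 9.97 and 10.9 TPM on the soft matrix and 16.2, 16.9 and 15.8 on the stiff one. The 6 groups did not overlap, Stiff and Stiff+mito being highest and Soft+mito lowest. Of all members Cth had the largest change in each of the first pair of matrix comparisons, at 1.71 ± 0.059 (adjusted p = 1.53e-49) and 2.27 ± 0.073 with mito, and it rose by 0.64 ± 0.085 with TW. Asns, which makes asparagine from aspartate and glutamine (gene 27053, chr6:7675165-7693209), was at 213, 209 and 203 TPM in Soft and 383, 373 and 376 in Stiff. Under mito, values were 151, 163 and 146 TPM on the soft matrix and 309.6, 306 and 309.5 on the stiff one. Its Soft-TW libraries had 144, 137 and 143 TPM and its Stiff-TW libraries 199, 199.7 and 197. No groups of Asns overlapped either, and it rose by 0.93 ± 0.024 (adjusted p = 8.58e-61), 1.00 ± 0.025 and 0.51 ± 0.027 in the same order of comparisons.

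The proline enzymes followed. Aldh18a1, which carries out the committed step from glutamate, was at 61.5, 58 and 57 TPM in Soft and 108, 108 and 109 in Stiff. In Soft+mito it was at 41.5, 39.3 and 39.7 TPM and in Stiff+mito at 92.1, 87.8 and 91.5. In Soft-TW it was at 48.1, 47.9 and 48.4 TPM and in Stiff-TW at 72.9, 74.6 and 68.5. Every stiff group of Aldh18a1 lay above every soft group, and it rose by 0.97 ± 0.028, 1.17 ± 0.030 and 0.60 ± 0.031. Pycr1, which completes proline synthesis in mitochondria, was at 5.62, 6.16 and 5.71 TPM in Soft and 13.4, 10.1 and 12.5 in Stiff. With mito it read 4.04, 3.69 and 3.73 TPM on the soft matrix and 10.1, 10.0 and 12.8 on the stiff one. Soft-TW had 5.45, 5.61 and 4.9 TPM and Stiff-TW 8.92, 8.54 and 9.78. Pycr1 too was higher in every stiff group than in any soft group, by 1.12 ± 0.099, 1.55 ± 0.11 and 0.81 ± 0.11, the last being the largest rise of any member with TW.

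The remaining enzymes were transaminases. Gpt2, the mitochondrial alanine transaminase, was at 28.1, 26.7 and 26.2 TPM in Soft and 51.1, 53.9 and 54.2 in Stiff. Its Soft+mito libraries had 18.3, 18.7 and 18.4 TPM and its Stiff+mito libraries 47.7, 44.8 and 45. Gpt2 in Soft-TW was at 16.5, 18.6 and 18 TPM and in Stiff-TW at 24.6, 28.4 and 25.9. Stiff-TW overlapped Soft, and Gpt2 rose by 1.05 ± 0.036, 1.31 ± 0.039 and 0.58 ± 0.044. Got1, the cytosolic aspartate transaminase, was at 70.6, 69.1 and 67.4 TPM in Soft and 100.1, 102 and 95.6 in Stiff. Got1 in Soft+mito was at 63.3, 63.4 and 64.6 TPM and in Stiff+mito at 92.5, 94 and 90.7. With TW it read 61.2, 63 and 63.7 TPM on the soft matrix and 73.5, 71.9 and 69.7 on the stiff one. Stiff and Stiff+mito lay above the rest, and Stiff-TW overlapped Soft. Got1 showed the smallest rise of the 6 enzymes, at 0.60 ± 0.035, 0.53 ± 0.035 and 0.22 ± 0.037. Cbs, which makes the cystathionine that Cth cleaves, had 0 to 6 counts per library and at most 0.27 TPM, with 0 counts in 2 of 18 libraries, so it was not tested. A library's count of 0 allows up to 3 counts, for counting error alone.

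Of the 9 amino acid transporters, 8 rose in Stiff against Soft and 1 fell (29.1% and 24.7% of all genes), and 7 rose and 2 fell in Stiff+mito against Soft+mito (32.7% and 30.8%). With TW 3 rose, 4 fell and 2 did not pass, where 27.6% of all genes rose and 26.7% fell, so the count of rises was near that of all genes. Slc7a5 encodes LAT1, the exchanger of large neutral amino acids, and was at 67.9, 66.3 and 70.7 TPM in Soft and 147, 137 and 142 in Stiff. Under mito, values were 52.9, 46.9 and 46.6 TPM on the soft matrix and 115, 115 and 114 on the stiff one. Its Soft-TW libraries had 41.4, 44.1 and 43 TPM and its Stiff-TW libraries 70.0, 67.6 and 67.7. Stiff-TW overlapped Soft, and Slc7a5 rose by 1.14 ± 0.028 (adjusted p = 2.69e-55), 1.23 ± 0.030 and 0.70 ± 0.033, the largest rises among the transporters. Its partner Slc3a2, the heavy chain that LAT1 and xCT need at the cell surface, rose by 0.52 ± 0.023 and, with mito, by 0.38 ± 0.024, from 219 ± 3.46 TPM in Soft and 192 ± 3.84 in Soft+mito. Slc6a9, the glycine transporter GlyT1, was at 56.1, 53.3 and 51.9 TPM in Soft and 88, 84.6 and 87.1 in Stiff. In Soft+mito it was at 39.7, 40.0 and 36.4 TPM and in Stiff+mito at 75.2, 70.4 and 69.3. In Soft-TW it was at 33, 31.4 and 34.1 TPM and in Stiff-TW at 38.4, 36.5 and 40.7. Stiff and Stiff+mito lay above every soft group, and Slc6a9 rose by 0.78 ± 0.032, 0.88 ± 0.035 and 0.25 ± 0.040.

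Slc7a11 encodes xCT, which imports cystine in exchange for glutamate (gene 26570, chr3:50364936-50499087). Its order of groups was not that of Cth, whose enzyme yields cysteine. Slc7a11 was at 106, 99.4 and 98.8 TPM in Soft and 112, 109.5 and 107 in Stiff. With mito it read 90.6, 89.4 and 87 TPM on the soft matrix and 77.5, 74.8 and 75.1 on the stiff one. Soft-TW had 59.5, 60.5 and 59.5 TPM and Stiff-TW 38.6, 37.7 and 36. The 6 groups did not overlap. Slc7a11 rose by 0.20 ± 0.021 in Stiff against Soft (adjusted p = 2.14e-14), but fell by 0.24 in Stiff+mito against Soft+mito and by 0.67 in Stiff-TW against Soft-TW. Slc7a3, a transporter of cationic amino acids, was low, at 2.62, 2.34 and 2.33 TPM in Soft and 2.3, 3.94 and 3.19 in Stiff. Its Soft+mito libraries had 1.63, 1.92 and 1.92 TPM and its Stiff+mito libraries 2.81, 1.93 and 2.28. Slc7a3 in Soft-TW was at 2.11, 1.63 and 1.43 TPM and in Stiff-TW at 1.23, 1.53 and 1.3. Its Stiff and Soft libraries overlapped in TPM, and its rise of 0.55 ± 0.15 was lost without Stiff replicate 2 (0.32, adjusted p = 0.106). The other transporters were Slc7a1, which carries cationic amino acids, Slc1a4 and Slc1a5, which carry small neutral amino acids and glutamine, and Slc38a2, the sodium-coupled transporter SNAT2. Slc7a1, Slc1a4 and Slc1a5 rose by 0.37 to 0.56 in Stiff against Soft, from means of 42.4, 48.7 and 53.7 TPM in Soft. Slc38a2 fell, by 0.14, from 476 ± 14.5 to 407 ± 2.18 TPM, and it was the only transporter to fall in all 3 matrix comparisons.

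The brakes and secreted factors differed in level and in size of change. Chac1, which degrades glutathione, rose from 145 ± 4.64 to 185 ± 6.69 TPM in Stiff against Soft (0.42 ± 0.032). Sesn2, an inhibitor of the growth kinase mTORC1, rose by 0.42 ± 0.043 from 33.4 ± 1.12 TPM, and Eif4ebp1, an inhibitor of cap-dependent translation, by 0.15 ± 0.032 from 607 ± 19 TPM. Gdf15, a hormone-like stress signal of the TGF-beta superfamily, was at 10.4, 7.97 and 8.32 TPM in Soft and 17.8, 20.6 and 18.6 in Stiff. Gdf15 in Soft+mito was at 10.6, 9.51 and 9.41 TPM and in Stiff+mito at 21.2, 20.2 and 22.4. With TW it read 6.69, 6.47 and 6.81 TPM on the soft matrix and 9.05, 9.51 and 9.17 on the stiff one. Stiff and Stiff+mito overlapped each other and lay above the rest, and Gdf15 rose by 1.15 ± 0.10 (adjusted p = 5.89e-19), 1.11 ± 0.094 and 0.49 ± 0.12. Fgf21, a metabolic hormone, was scarce, at 5 to 23 counts per library. It was at 1.57, 1.37 and 1.36 TPM in Soft and 3.57, 2.99 and 2.79 in Stiff. Under mito, values were 1.46, 1.01 and 0.70 TPM on the soft matrix and 3.35, 2.41 and 2.55 on the stiff one. Its Soft-TW libraries had 1.2, 1.33 and 0.74 TPM and its Stiff-TW libraries 1.2, 1.49 and 1.34. Stiff and Stiff+mito overlapped and lay above the other 4 groups. Those overlapped each other, except that Soft lay just above Soft-TW. Fgf21 rose by 1.15 ± 0.33 (adjusted p = 0.00178) and by 1.36 ± 0.35 with mito, and its standard errors show how little its counts allow. Vldlr, a lipoprotein receptor that Atf4 can induce, had 0 to 2 counts per library and was at 0 in 6 of 18. Stc2, a stanniocalcin, had 0 to 2 counts and was at 0 in 12 libraries, the 6 others being the TW libraries, at up to 0.13 TPM. Neither was tested.

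The matrix difference was then set side by side on the 3 backgrounds, which share no library. Beyond the 27 that rose and 3 that fell in Stiff against Soft, 23 members rose and 5 fell in Stiff+mito against Soft+mito (all genes, 32.7% and 30.8%), 12 of them by at least 1.5-fold upward (7.88% of all genes) and 0 downward (3.36%). In Stiff-TW against Soft-TW 17 rose and 8 fell (27.6% and 26.7%), 4 by at least 1.5-fold upward (4.43%) and 1 downward (1.88%). The median log2 fold change of the members was 0.44 with mito and 0.13 with TW, against 0.01 and 0.00 over all genes. On all 3 backgrounds 15 members rose (14.4% of all genes) and 2 fell, Eif2ak1 and Slc38a2 (12.7%). The 15 were Eif2ak4, Atf4, Cebpg, Nupr1, the 6 tested enzymes, Slc7a5, Slc1a5, Slc6a9, Chac1 and Gdf15. Members that rose in 1 matrix comparison and fell in another were Ppp1r15a, Ddit3, Slc7a11, Slc7a1, Slc1a4 and Eif2ak3. The TW fall of Slc7a1 was lost without Soft-TW replicate 3 (adjusted p = 0.0614), and that of Slc1a4 without Soft-TW replicate 1 (0.0539) or Stiff-TW replicate 1 (0.0544). Among the members that rose with TW, the call of Slc1a5 was lost without Stiff-TW replicate 3 (adjusted p = 0.0507). The TW call of Eif2ak4 was lost in DESeq2 (adjusted p = 0.103), with the library total as the scale (0.0998) and without Soft-TW replicate 2 (0.120), Stiff-TW replicate 1 (0.0509) or Stiff-TW replicate 3 (0.111). That of Nupr1 was lost in DESeq2 (adjusted p = 0.0766), with the library total as the scale (0.0529) and without Soft-TW replicate 1 (0.140) or Stiff-TW replicate 3 (0.0691).

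**Figure D3:**
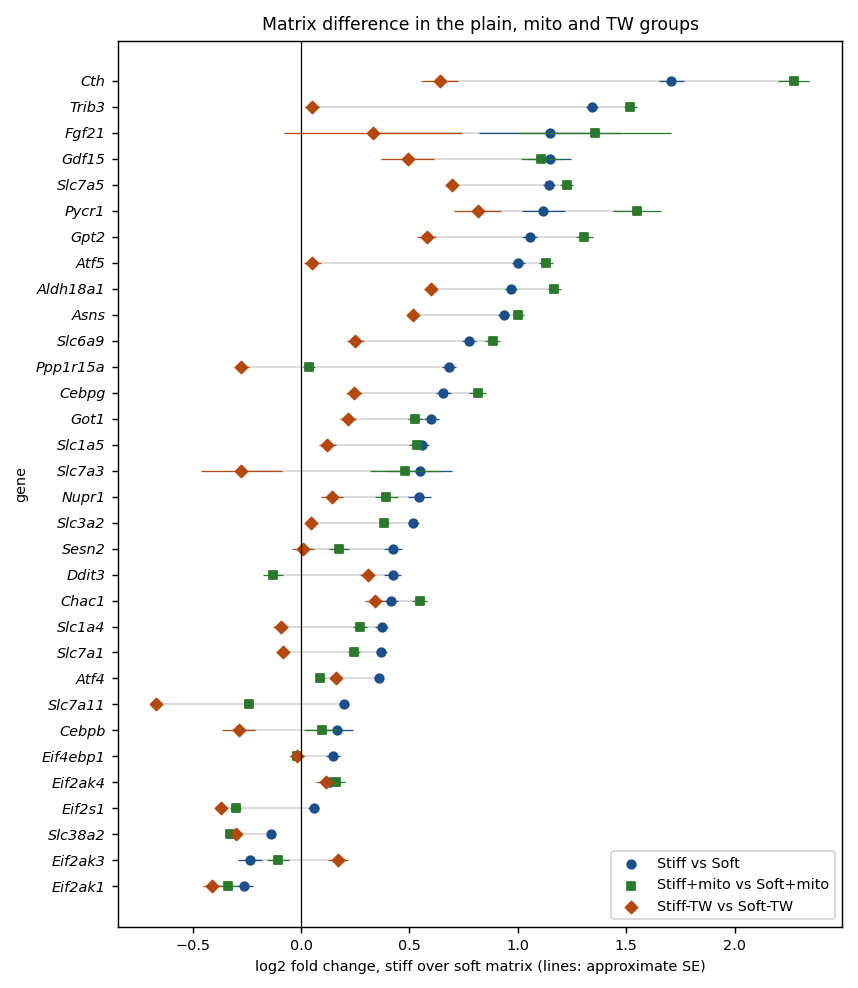
Log2 fold change of stiff over soft matrix for each tested member (rows, ordered by Stiff against Soft), as circles without addition, squares with mito and diamonds with TW, with lines of 1 approximate standard error. The diamonds lie left of the circles for all members but Eif2ak3, and the squares of Cth and Pycr1 lie farthest right, at 2.27 and 1.55.

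With mito, most members that passed were lower than on the same matrix alone. In Soft+mito against Soft 3 members rose and 18 fell, where 14.8% of all genes rose and 11.9% fell (with the library total as the scale, 1 and 18 members, and 1241 and 2000 in place of 1817 and 1457 genes). The largest falls were those of Cth, by 1.06 ± 0.087 (adjusted p = 1.05e-19), and Trib3, by 0.64, both at least 1.5-fold (1.05% of all genes). Pycr1 fell by 0.57, Gpt2 by 0.47, Aldh18a1 and Chac1 by 0.46 and Slc7a5 by 0.39. The 3 that rose were Ppp1r15a, the 1 member with a rise of at least 1.5-fold (0.580%), and Eif2s1 and Eif4ebp1 at 0.09 and 0.10, calls that were lost with the library total as the scale (adjusted p = 0.0732 and 0.0784). In Stiff+mito against Stiff 1 rose and 23 fell (15.6% and 17.8% of all genes). Eif2ak3 was the one that rose (0.23 ± 0.054), and Ddit3 had the largest fall, 0.90 ± 0.046 on the log2 scale (adjusted p = 2.48e-36), the only member down by at least 1.5-fold (0.425%). Slc7a11 fell by 0.53 and Cth by 0.50, and Pycr1 and Gdf15 did not pass. The median log2 fold change was -0.16 on the soft and -0.24 on the stiff matrix.

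With TW, too, most members that passed were lower than on the same matrix alone. In Soft-TW against Soft 7 members rose and 19 fell (28.9% and 28.0% of all genes, and with the library total as the scale 5 and 21 members, and 2790 and 4442 in place of 3538 and 3426 genes), with 5 falls of at least 1.5-fold (1.96%) and 0 rises of that size (6.08%). Chac1 fell most, by 1.04, from 145 ± 4.64 to 65.4 ± 4.63 TPM, followed by Atf5 at 0.77, Cth at 0.70, Slc7a11 at 0.65 and Slc6a9 at 0.60. Ddit3 rose by 0.54 ± 0.039, Nupr1 by 0.39 ± 0.054 and Eif2ak3 by 0.27 ± 0.050. Over all genes the median log2 ratio of TPM in Soft-TW against Soft was -0.113, so small changes can differ in sign between TPM and the fitted values: Trib3 was called higher by 0.09 with means of 94.2 and 95.4 TPM, and was not called with the library total as the scale (0.04, adjusted p = 0.333). In Stiff-TW against Stiff 28 members fell, 3 rose and 1 did not pass, where 34.1% of all genes fell and 35.5% rose. Of these, 19 fell by at least 1.5-fold (7.42%) and 1 rose so far (10.6%). Cth fell by 1.77 ± 0.061 (adjusted p = 1.31e-50), Atf5 by 1.73, Slc7a11 by 1.52, Trib3 by 1.20, Slc7a3 by 1.16, Slc6a9 by 1.13, Chac1 by 1.12, Fgf21 by 1.11 and Slc7a5 by 1.01. All 9 transporters and all 6 tested enzymes fell. The members that rose were Eif2ak3, Ddit3 (0.42 ± 0.036) and Eif2ak4 (0.18 ± 0.044), and Nupr1 did not pass. The median log2 fold change was -0.24 in Soft-TW against Soft and -0.74 in Stiff-TW against Stiff.

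Whether the difference with mito or TW depended on the matrix was tested as an interaction, the change on the stiff matrix minus that on the soft one, on the log2 scale. For TW, 26 members had a negative interaction and 1 a positive one, where 19.7% and 16.4% of all genes did, with 7 negative by at least 1.5-fold (2.21%) and 0 positive by as much (2.32%). The 7 were Trib3 (-1.29 ± 0.042), Cth (-1.07 ± 0.11), Ppp1r15a (-0.96 ± 0.047), Atf5 (-0.95 ± 0.049), Slc7a11 (-0.87 ± 0.032), Slc7a3 (-0.82 ± 0.24) and Gdf15 (-0.66 ± 0.16). The call of Slc7a3 was lost without Stiff replicate 2 (-0.60, adjusted p = 0.0536). For Trib3, the means of 229 TPM in Stiff and 95.4 in Soft compare with 96.1 in Stiff-TW and 94.2 in Soft-TW. Eif2ak3 was the 1 positive member (0.41 ± 0.072), and Eif2ak4, Ddit3, Pycr1, Chac1 and Fgf21 did not pass. For mito, 8 members were positive and 10 negative, where 10.4% and 13.1% of all genes were (with the library total as the scale 11 and 9 members, and 1641 and 1185 in place of 1278 and 1610 genes). In DESeq2 4 were positive and 10 negative, counts that are given here without the share of all genes in that fit. Ppp1r15a (-0.65 ± 0.042) was the 1 member negative past 1.5-fold (0.237%) and 0 were positive by as much (1.22%), Ddit3 stood at -0.55 ± 0.062 and Cth, in the other direction, at 0.56 ± 0.10. By role, 4 of 6 enzymes were positive and 0 negative, whereas 4 of 9 transporters were negative and 0 positive. Of the positive calls, those of Pycr1, Cebpg, Chac1 and Atf5 were lost in DESeq2 (adjusted p from 0.0768 to 0.116). Each of these 4 was also lost when certain single libraries were left out, as Pycr1 was without Stiff replicate 2 (adjusted p = 0.1175). The negative call of the transporter Slc7a1 was lost with the library total as the scale (-0.0958, adjusted p = 0.0559).

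Ranked by mean TPM, Stiff was the highest of the 6 groups for 23 of the 32 tested members, against 18.5% of the 11221 genes with a mean of at least 1 TPM. Soft was highest for Eif2ak1, Eif2s1 and Slc38a2, Stiff-TW for Eif2ak3, Eif2ak4 and Ddit3, Stiff+mito for Ppp1r15a and Gdf15, and Soft-TW for Cebpb. For Eif2s1 the means were 108.6 TPM in Soft and 108.1 in Soft+mito, whereas the fit called it higher in Soft+mito. Over all genes the median log2 ratio of TPM in Soft+mito against Soft was -0.080, so close ranks can differ from the fit. The lowest group was Soft-TW for 11 members (13.4% of the 11221 genes), Stiff-TW for 10 (33.9%), Soft+mito for 9 (24%), Stiff for Eif2ak3 and Stiff+mito for Ddit3, so the counts for Stiff-TW and Soft+mito were near the shares of those genes. Neighbouring groups in this order overlapped for some members, Stiff and Stiff+mito for Pycr1, Gdf15 and Fgf21 among them.

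The transcript table divides each gene's estimated counts among RefSeq transcripts, and 12 members had more than 1 transcript with at least 10% of the gene. For Ddit3 the estimated division varied between groups. Transcript NM_007837 had mean estimated counts of 484.5 in Soft+mito, 486.6 in Stiff+mito, 623.5 in Soft, 1006 in Stiff, 1042 in Soft-TW and 1337 in Stiff-TW. Transcript NM_001290183 had 129.8 in Stiff, 129.9 in Stiff+mito, 148 in Stiff-TW, 167 in Soft-TW, 188 in Soft and 219.6 in Soft+mito. The predicted transcript XM_030244867 had 89.7 in Stiff+mito, 95.2 in Soft+mito, 167 in Stiff, 195 in Soft, 209 in Soft-TW and 218 in Stiff-TW. NM_007837 was highest in the 3 groups where the gene was highest, and its share of the gene ran from 60.3% in Soft+mito to 77.8% in Stiff-TW, while the share of NM_001290183 ran from 8.62% to 27.3%. For Slc7a1, NM_001301424 was at 2.24, 267 and 0.75 estimated counts in Soft-TW and 0, 313 and 1.26 in Stiff-TW, against 1207, 1355 and 985 in Stiff. Such spread between replicates shows how unsure the division of shared reads is, so these transcript values are given with no test. For Atf4, the share of its leading transcript, NM_009716, ran from 57.7% in Soft+mito to 61.1% in Stiff+mito. The Cebpb transcripts had equal shares, 33.3% each in every group, and so carry no information apart from the gene.

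**Figure D4:**
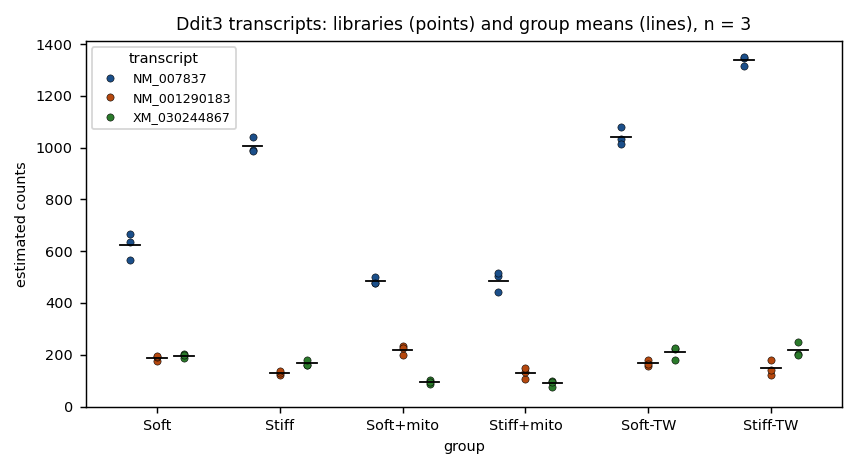
Estimated counts of the 3 leading Ddit3 transcripts in each library (points) with the group mean as a line (n = 3), for the 6 groups. NM_007837 runs from 484.5 in Soft+mito to 1337 in Stiff-TW, and lies above both other transcripts in every library.

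Other genes of the pathway were counted from lists that are not members. These lists too were chosen with earlier results of these data known, so their counts are a description and no independent support. Of 23 further Atf4 partners and targets, 22 rose and 1 fell, Tnfrsf10b, a death receptor, in Stiff against Soft (29.1% and 24.7% of all genes), with a median log2 fold change of 0.55. The smallest adjusted p-values were those of Aldh1l2, a mitochondrial folate enzyme (1.61 ± 0.024), Nars, which charges asparagine tRNA (0.81 ± 0.020), and Phgdh, which opens serine synthesis (0.79 ± 0.021). The same list had 22 higher and 1 lower in Stiff+mito against Soft+mito (all genes, 32.7% and 30.8%), and 18 and 4 in Stiff-TW against Soft-TW (27.6% and 26.7%). With mito it had 2 higher and 18 lower on the soft matrix (14.8% and 11.9%) and 1 and 20 on the stiff one (15.6% and 17.8%). With TW it had 5 and 17 on the soft matrix (28.9% and 28.0%) and 3 and 19 on the stiff one (35.5% and 34.1%). Aldh1l2 had a TW interaction of -1.40 ± 0.035 and a mito interaction of 0.56 ± 0.038. Upstream, the 14 genes of eIF2, its exchange factor and its regulators divided as 5 higher and 2 lower in Stiff against Soft with a median of 0.03, where 29.1% of all genes rose and 24.7% fell. The smallest adjusted p values were those of Eif2s2, the beta subunit (0.39 ± 0.023), Gcn1, an activator of GCN2 (0.17 ± 0.032), and Impact, an inhibitor of GCN2 (0.11 ± 0.025). Dele1, which carries the mitochondrial stress signal to HRI and was picked after its value was seen, rose by 0.23 ± 0.055, 0.25 ± 0.056 and 0.40 ± 0.057 in the 3 matrix comparisons, and was not called in Soft+mito against Soft (-0.05) or Stiff+mito against Stiff (-0.04). Oma1, the protease that cuts Dele1, was picked in the same way and did not pass in the matrix comparisons. Of 14 tested transporters outside the members, 4 rose and 4 fell in Stiff against Soft, near the shares of all genes (29.1% and 24.7%), with a median log2 fold change of 0.04. Those of smallest adjusted p were the taurine transporter Slc6a6 (-0.33 ± 0.022), Slc38a6 (-0.37 ± 0.030) and Slc38a7 (0.37 ± 0.048).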

How the data were processed

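Strand-specific libraries of poly(A) RNA from cells labelled RAW264.7 were sequenced as paired ends, per the labels' protocols, and groups were taken from the labels. Estimated counts (expected counts) and TPM per gene, and estimated counts per transcript, were computed and deposited by the authors. The submitters' processing notes give the genome build as mm10, while aligner, quantifier and annotation are not given in the sources at hand. Of the values, 10.9% per gene and 51.9% per transcript were not whole (tolerance 0.001), so shared reads had been divided. TPM is used for levels. A further 44 columns of group averages were not used.

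Estimated counts were rounded and tested in edgeR 4.0.16 (R 4.3.3), with genes kept by filterByExpr (12245), TMM factors of 0.968 to 1.031, and 1 robust quasi-likelihood fit of the 6 group means over the 18 libraries. There were 9 comparisons, each tested by a two-sided F-test, and p-values were adjusted by Benjamini-Hochberg over all genes tested. The approximate standard error is the size of the log2 fold change over the square root of F. Replicate libraries differed by a chi-square per degree of freedom of 1.186 to 2.163, more than sampling noise. Whether the biosamples were separate cultures is not stated. Same-numbered libraries of different groups correlated in their deviations at r from -0.13 to 0.197 over 45 pairs, so their numbers were not taken to pair them.

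The members and lists were chosen with earlier results of these data known. All members are named; a member is given in every library where it rose by at least 1.5-fold in Stiff against Soft, where an interaction passed at that size, or where it is Atf4, Ddit3 or a kinase, and other lists give up to 3 genes of smallest adjusted p. On counts simulated for Stiff against Soft (12118 genes tested), 88% of genes changed by 1.25-fold and 100% of those changed by 1.5-fold were called, and 0.084% of unchanged genes. The simulation gave all genes the 1 common dispersion. Its changed genes, 50 per size, were drawn from those with a mean of at least 50 counts. These shares therefore do not cover scarce members such as Fgf21, or genes with a wider spread. Alternatives were DESeq2 1.42.0, the library total as scale, no filter on low counts, only the groups compared, a replicate block, and each library left out. Gene positions and promoters are from RefSeq GRCm38.p6, the assembly behind mm10, in which 18257 of the 18397 gene identifiers were found.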

Additional observations from a re-analysis of the deposited data

Results flagged for a closer look

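These are the members whose mito or TW difference depended on the matrix by at least 0.5 on the log2 scale, by the edgeR interaction test adjusted over all genes. With mito, Ppp1r15a (-0.65) and Ddit3 (-0.55) changed less upward or more downward on the stiff matrix than on the soft one, and Cth (0.56) fell less there. With TW, the interaction was negative for Trib3 (-1.29), Cth (-1.07), Ppp1r15a (-0.96), Atf5 (-0.95), Slc7a11 (-0.87), Slc7a3 (-0.82), Gdf15 (-0.66) and Slc6a9 (-0.53), so that the stiff matrix showed the larger fall. Of these, Ppp1r15a, Trib3 and Slc7a3 were not called or were called higher in Soft-TW against Soft, and all 8 fell in Stiff-TW against Stiff. The call of Slc7a3 was lost without Stiff replicate 2 (-0.60). No cause of these differences was tested.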

How the results depend on the processing

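The alternatives gave 2800 values of single members, taken only where the main fit had called the member. Of these, 2709 kept their direction and their side of the threshold, 91 kept their direction but were no longer past it, and 0 reversed. This tally can show calls that were lost but none that were gained. Leaving out each library in turn gave 29 to 30 members called in Stiff against Soft, 26 to 29 with mito, 22 to 25 with TW, 19 to 21 in Soft+mito against Soft, 22 to 24 in Stiff+mito against Stiff, 23 to 26 in Soft-TW against Soft, 30 to 31 in Stiff-TW against Stiff, 15 to 18 for the mito interaction and 26 to 27 for the TW interaction. DESeq2 lost 12 of 230 calls, the library total as the scale 8, the fit of only the groups compared 2 and no filter 1. The replicate block lost 0 of 230 calls, and with it 31 members were called in Stiff against Soft in place of 30 and 6634 genes in place of 6588, although the numbers were not found to pair the libraries. Depth limits Cbs, Vldlr and Stc2, which were not tested, and Fgf21 and Slc7a3, whose counts were low.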
